A study of Arabidopsis thaliana with 12 samples.

Results

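RNS1 (AT2G02990), RNS2 (AT2G39780), RNS3 (AT1G26820) and BFN1 (AT1G11190) are nuclease genes of Arabidopsis thaliana. They are 4 of the 34262 features counted in the series. They were chosen by locus with their levels in the 4 groups of the series in view, so the levels and differences of the 4 genes are given as a description. Whether the fit over all genes called them is stated in the same sense and supports nothing. All 4 were found in the count tables, and all 4 passed the filter on low counts.

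Whole seedlings, 6 days old and grown on MS medium, were compared in 4 groups of 3 libraries each. WT mock was the wild type Col-0 without the drug, and WT Zeocin was Col-0 after 6 h with 20 µM Zeocin, a drug of the bleomycin family that breaks DNA. The pot1b mock and pot1b Zeocin groups were seedlings of a mutant of POT1B, a paralogue of a telomere protein, under the same treatments. The allele of pot1b is not given in the sources used here. The labels do not say whether the 3 libraries of a group came from separate cultures. The p-values given for other genes therefore reflect library-to-library spread, part or all of which may be technical.

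RNS1, RNS2 and RNS3 belong to the RNase T2 family, which cuts single-stranded RNA outside the cytosol, in the cell wall space, the vacuole or the endomembrane system. RNS1 is a secreted enzyme whose transcript is known to rise on phosphate shortage, wounding and senescence. RNS2 is the housekeeping member and degrades ribosomal RNA in the vacuole, and RNS3 is known from senescing and dying cells. BFN1 belongs to another family, the S1/P1-type nucleases, cuts both RNA and single-stranded DNA, and is a marker of senescence and of programmed cell death in xylem and root cap.

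The catalytic centre shared by the T2 family is read directly from the coding sequences. The lines below show 30 coding bases around the first conserved active-site motif of the 3 RNS genes and of the other 2 T2 family genes of the genome annotation, with the codons of the conserved histidine-to-proline motif in capitals (RefSeq, TAIR10.1). They are shown because they mark which genes are enzymes of 1 family and how far the reads of each could be told apart.

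RNS1: ggcattCATGGTCTTTGGCCTaactacaaa

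RNS2: acaattCATGGGTTATGGCCTgactataac

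RNS3: ggaattCACGGTCTTTGGCCTaactacaaa

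AT1G14210: atcatcCATGGACTCTGGCCTcagttcaac

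AT1G14220: ggtatcCACGGTCTATGGCCTaattataac

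The motif was found once in frame in each of the 5 genes, in different codons. RNS1 and RNS3 shared a run of 21 identical bases here, ggtctttggcctaactacaaa, the longest between them, at 67.2% identity over the aligned coding sequence. RNS1 and AT1G14220 shared a run of 20 bases at 67.9% identity, and RNS3 and AT1G14220 a run of 18 at 69.7%. RNS1 and RNS2 shared no run longer than 10 bases. None of the 4 genes overlapped another annotated gene, RNS1 and RNS2 lying on the forward strand of chromosome 2 with 4 and 9 coding exons, and RNS3 and BFN1 on the reverse strand of chromosome 1, also with 4 and 9.

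The 250 bases upstream of each transcript start are given because the levels of the 4 genes are compared below (RefSeq, TAIR10.1, on the strand of the gene; the counts were made on TAIR10). Both strands were searched for the letters GNATATNC (P1BS, the site of the phosphate regulator PHR1), CTT and AAG with 7 bases between them (the site of SOG1, the plant DNA damage regulator), TTGAC (the core of the W-box of WRKY factors) and CACGTG (the G-box), and matches are in capitals.

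RNS1 promoter, chr2:873256-873505 (+): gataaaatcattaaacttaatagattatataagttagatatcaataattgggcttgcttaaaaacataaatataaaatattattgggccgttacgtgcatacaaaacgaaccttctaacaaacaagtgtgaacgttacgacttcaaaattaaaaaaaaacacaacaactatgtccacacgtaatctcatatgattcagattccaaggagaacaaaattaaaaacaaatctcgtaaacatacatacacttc

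RNS2 promoter, chr2:16590867-16591116 (+): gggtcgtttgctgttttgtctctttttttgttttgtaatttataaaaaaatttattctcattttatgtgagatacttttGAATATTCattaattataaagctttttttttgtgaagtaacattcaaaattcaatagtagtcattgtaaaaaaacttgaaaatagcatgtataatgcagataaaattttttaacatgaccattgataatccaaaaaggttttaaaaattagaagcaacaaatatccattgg

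RNS3 promoter, chr1:9293863-9294112 (-): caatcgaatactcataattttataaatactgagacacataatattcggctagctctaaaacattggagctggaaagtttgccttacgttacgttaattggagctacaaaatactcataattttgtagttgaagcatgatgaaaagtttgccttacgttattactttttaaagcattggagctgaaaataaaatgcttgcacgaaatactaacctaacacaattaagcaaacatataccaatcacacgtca

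BFN1 promoter, chr1:3752781-3753030 (-): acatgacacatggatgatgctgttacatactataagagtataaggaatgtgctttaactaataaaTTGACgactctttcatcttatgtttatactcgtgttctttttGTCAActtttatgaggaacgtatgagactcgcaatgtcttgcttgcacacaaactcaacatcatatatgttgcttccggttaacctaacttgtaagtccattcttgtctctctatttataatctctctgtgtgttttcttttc

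No motif was matched in the printed bases of RNS1 and RNS3. RNS1 held the P1BS letters GTATATAC just inside its transcript, from base 20 to base 27 after the start. RNS2 held GAATATTC from base -171 to -164 and again from base 27 to 34 of the transcript. BFN1 held the W-box core from -185 to -181 and, on the other strand, from -143 to -139. Over 27443 windows of 250 bases before to 50 after a start, 6.25% held the P1BS letters, 11.8% the SOG1 letters, 50.5% the W-box core and 7.68% the G-box. A match of letters does not show that a factor binds.

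The libraries held 9607269 to 24587168 counts, of which 53.0% to 58.5% fell on chloroplast genes. Levels are CPM (read counts relative to the TMM-scaled library total), and 3 counts correspond to 0.119 to 0.316 CPM. POT1B stood at 2.95 to 5.35 CPM in the 6 WT libraries and at 0.70 to 4.21 CPM in the 6 pot1b libraries, where both libraries with replicate number 3 (2.82 and 4.21 CPM) were near the WT level. POT1B overlaps another gene and the site of the mutation is not given, so its reads are a weak check of the labels. WT Zeocin replicate 1 stood apart from the other 2 of its group, with chi-square values per gene of 25.2 and 23.5, against 3.44 to 9.95 for every other pair within a group. Differences of RNS1, RNS3 and BFN1 are given with and without these libraries. Of 49 called results of the other named genes, 13 were lost without both pot1b libraries of replicate number 3 and 0 without WT Zeocin replicate 1.

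RNS1 stood several times higher in pot1b seedlings than in WT, with or without the drug, and was somewhat lower after Zeocin in both genotypes. WT mock libraries held 5.67, 5.79 and 6.80 CPM (mean 6.08 ± 0.619, SD, n = 3). WT Zeocin libraries held 3.63, 4.72 and 5.35 CPM (4.57 ± 0.872). The lowest of these was WT Zeocin replicate 1, and the highest lay under every WT mock library. In pot1b, mock libraries held 24.8, 30.8 and 30.6 CPM (28.7 ± 3.40) and Zeocin libraries 18.2, 21.1 and 24.7 CPM (21.3 ± 3.29). The order of the groups was thus WT Zeocin, WT mock, pot1b Zeocin and pot1b mock, and no neighbours in this order overlapped, although the highest pot1b Zeocin library (24.7) and the lowest pot1b mock library (24.8) differed by far less than the SD of either group. Among all tested genes, 11.1% had every WT Zeocin library under every WT mock library, and 12.7% had the same between the pot1b groups. Every pot1b library lay above every WT library in 17.7% under mock and in 14.0% under Zeocin. The share for the step from WT mock to pot1b Zeocin was not computed. These levels rest on 53 to 143 counts per library in WT and on 241 to 504 in pot1b.

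**Figure D1:**
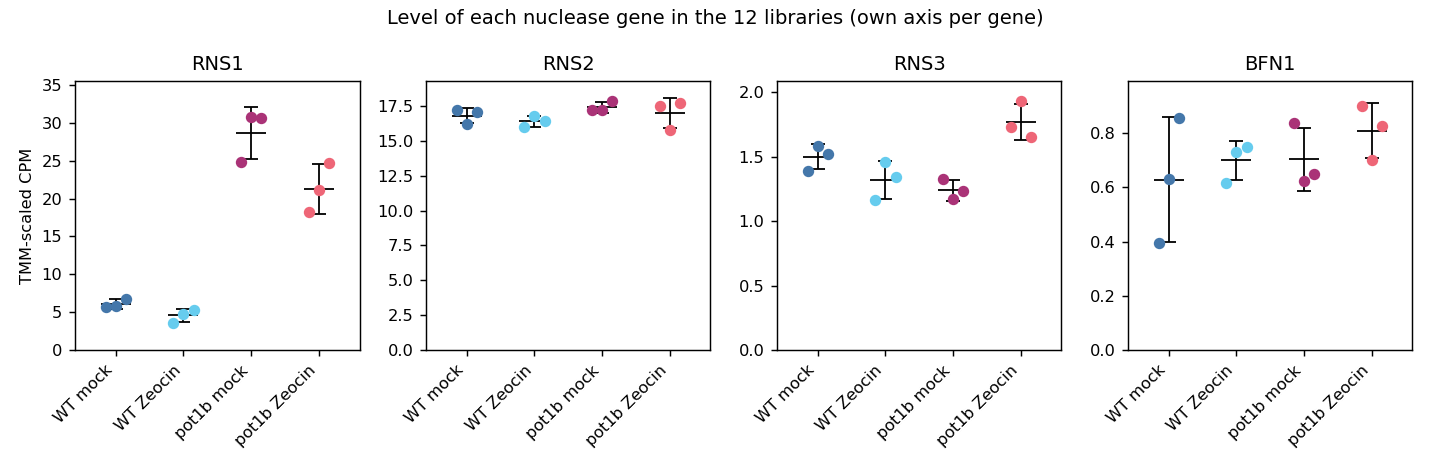
Level of RNS1, RNS2, RNS3 and BFN1 in TMM-scaled CPM (vertical axis, own scale for each gene) in the 3 libraries of each group (points), with the mean and SD (bars). RNS1 lies between 3.63 and 6.80 CPM in WT and between 18.2 and 30.8 CPM in pot1b, RNS2 stays between 15.8 and 17.9 CPM throughout, and RNS3 and BFN1 lie under 2 CPM.

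In the edgeR quasi-likelihood fit across all 19596 tested genes, RNS1 was 2.23 higher on the log2 scale in pot1b than in WT under mock (SE 0.14, 95% interval 1.94 to 2.51), a fold of 4.69. Under Zeocin the difference was 2.21 (SE 0.14, 1.91 to 2.51). Without both pot1b libraries of replicate number 3 the differences were 2.19 and 2.08, and without WT Zeocin replicate 1 the difference under Zeocin was 2.06. The 2 comparisons share no library, but each shares 1 group with each Zeocin comparison.

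The Zeocin difference of RNS1 was small beside that of genotype, and its estimates in the 2 genotypes lay close together. It was -0.41 on the log2 scale in WT (SE 0.16, 95% interval -0.73 to -0.08), which was not called, and -0.27 without WT Zeocin replicate 1. In pot1b it was -0.43 (SE 0.12, -0.69 to -0.17), which was called lower. That call was lost when 1 of 7 libraries was left out (WT mock replicate 1 or 2, WT Zeocin replicate 2, pot1b mock replicate 2 or 3, pot1b Zeocin replicate 1 or 2), where the difference ranged from -0.55 to -0.32 over all libraries left out in turn. It was also lost with DESeq2, and at -0.51 without both pot1b libraries of replicate number 3. The interaction, the Zeocin difference in pot1b minus that in WT, was -0.02 (SE 0.20, -0.45 to 0.40). That interval is too wide to show that the 2 differences were equal.

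In whole seedlings, fewer cells of a type and less RNA per cell cannot be told apart. Markers of other tissues also moved with genotype. The summed level of 5 leaf and photosynthesis markers was 5190 to 5610 CPM in WT mock and 5110 to 5800 in WT Zeocin. It was 7100 to 8000 CPM in pot1b mock and 6280 to 6390 in pot1b Zeocin. Of the 5, 4 were called higher in pot1b under mock, beside 7.25% of all tested genes. Under Zeocin 1 of the 5 was called higher (6.55% of all tested genes), LHCB1.1, a light-harvesting protein. With Zeocin in pot1b 3 of the 5 were called lower (3.00% of all tested genes). These were the Rubisco small subunits RBCS1A (-0.35, edgeR adjusted p = 0.020) and RBCS3B (-0.30, adjusted p = 0.032), and the Rubisco activase RCA (-0.33, adjusted p = 0.011), whose reads overlap another gene. All 3 calls were lost without both pot1b libraries of replicate number 3 (adjusted p from 0.0549 to 0.187). The summed level of 6 root markers was 395 to 412, 365 to 390, 667 to 704 and 623 to 692 CPM in the same order of groups, of which PYK10 alone made 389, 366, 674 and 650 CPM (group means). SCR stood at 5.24 and 4.54 CPM and SHR, another regulator of the root ground tissue, at 4.42 and 4.11 CPM in the mock groups of WT and pot1b. The median difference of the list in pot1b was 0.26 under mock and -0.37 under Zeocin. Of the 5 tested root markers, 1 was called higher, PYK10, the main beta-glucosidase of root ER bodies, whose reads overlap another gene. It stood at 0.80 under mock (SE 0.07, edgeR adjusted p = 1.2e-07) and 0.83 under Zeocin (SE 0.07, adjusted p = 9.4e-08). Over all tested genes, 7.25% were called higher under mock, and 6.55% higher and 4.51% lower under Zeocin. Under Zeocin, SCR, a regulator of the root ground tissue, was called lower (-0.69, SE 0.17, adjusted p = 0.012), a call lost without WT Zeocin replicate 2 (adjusted p = 0.0589) or pot1b Zeocin replicate 1 (0.0908). No marker of either list was at 0 in all libraries. Their part in the RNS1 difference was not tested.

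RNS2 hardly varied. WT mock libraries held 17.2, 16.2 and 17.1 CPM, WT Zeocin 16.0, 16.8 and 16.4 CPM, pot1b mock 17.2, 17.2 and 17.9 CPM, and pot1b Zeocin 17.5, 15.8 and 17.7 CPM. Neighbours in the order of group means overlapped, and the highest library was 1.13 times the lowest. Every pot1b mock library lay above every WT Zeocin library. The share of all tested genes with that order was not computed, so nothing is read from it. The fitted differences were -0.04 and -0.03 for Zeocin in WT and in pot1b, and 0.04 and 0.05 for pot1b against WT under mock and under Zeocin (log2), all with 95% intervals within -0.25 and 0.27, the interaction (0.01) included. The 4 group means of RNS2 spanned 0.09 on the log2 scale, and 2.12% of all tested genes spanned less. Those of RNS1 spanned 2.63, and 99.6% of all tested genes spanned less.

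RNS3 was low and was highest in pot1b seedlings given Zeocin. WT mock libraries held 1.39, 1.58 and 1.52 CPM (1.50 ± 0.0986), WT Zeocin 1.16, 1.46 and 1.34 CPM (1.32 ± 0.15), and pot1b mock 1.33, 1.17 and 1.23 CPM (1.24 ± 0.0803). The pot1b Zeocin libraries held 1.73, 1.93 and 1.65 CPM (1.77 ± 0.14) and lay above all 9 others, while the other 3 groups each overlapped their neighbour in the order of levels. Among all tested genes, 12.6% had pot1b Zeocin libraries all above the pot1b mock libraries, and 14.0% had them all above the WT Zeocin libraries. The share with them all above the WT mock libraries was not computed. Every pot1b mock library also lay under every WT mock library, as in 16.9% of tested genes. With 15 to 35 counts per library, the fitted differences were 0.49 for Zeocin in pot1b (SE 0.23, 95% interval 0.01 to 0.97), -0.15 for Zeocin in WT (SE 0.22), -0.24 for pot1b under mock (SE 0.23) and 0.41 for pot1b under Zeocin (SE 0.23). The interaction was 0.64 (SE 0.32, -0.02 to 1.31). Without both pot1b libraries of replicate number 3 these values were 0.51, -0.15, -0.22 and 0.45, and 0.66 for the interaction. Without WT Zeocin replicate 1 they were 0.49, -0.07, -0.24 and 0.32, and 0.56. None passed the threshold with edgeR, DESeq2 or limma-voom.

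BFN1 was the lowest of the 4 genes, with 6 to 18 counts per library. WT mock libraries held 0.396, 0.632 and 0.855 CPM, WT Zeocin 0.616, 0.731 and 0.749 CPM, pot1b mock 0.837, 0.625 and 0.650 CPM, and pot1b Zeocin 0.901, 0.700 and 0.826 CPM. The range within WT mock alone took in all but 1 of the other libraries, and neighbours in the order of group means (0.628, 0.699, 0.704 and 0.809 CPM) overlapped at each step. The fitted differences were 0.20 and 0.18 for Zeocin in WT and pot1b, and 0.23 and 0.21 for pot1b under mock and Zeocin, with SEs of at least 0.34. The 95% intervals ran from -0.52 to 0.91, -0.55 to 0.91, -0.49 to 0.95 and -0.51 to 0.93 in the same order, so neither direction was established. Without WT mock replicate 1 the Zeocin difference in WT was -0.14 and the pot1b difference under mock -0.11. Without both pot1b libraries of replicate number 3, the differences for Zeocin in pot1b and for pot1b under mock and Zeocin were 0.10, 0.30 and 0.20. Without WT Zeocin replicate 1, those for Zeocin in WT and for pot1b under Zeocin were 0.27 and 0.13.

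**Figure D2:**
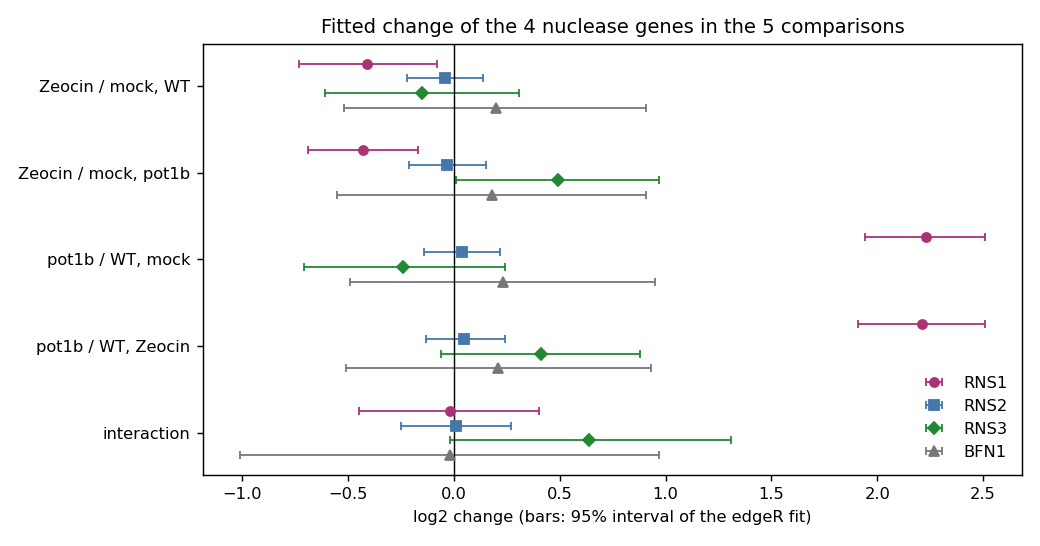
Fitted log2 change of the 4 genes (horizontal axis) in the 5 comparisons (rows), with 95% intervals from the edgeR fit. RNS1 stands at 2.23 and 2.21 in pot1b against WT, the intervals of RNS2 all lie within -0.25 and 0.27, and those of BFN1 are the widest.

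Of the 4 genes, 0 were called for Zeocin in WT, where 5.99% of all tested genes were called, 3.34% higher and 2.65% lower. For Zeocin in pot1b 1 was called, RNS1 lower, where 6.70% of tested genes were called, 3.70% higher and 3.00% lower. For pot1b against WT under mock 1 was called, RNS1 higher, where 13.1% of tested genes were called, 7.25% higher and 5.83% lower. Under Zeocin 1 was called, again RNS1 higher, where 11.1% were called, 6.55% higher and 4.51% lower. None was called for the interaction, where 0.75% of tested genes were called, 0.378% higher and 0.373% lower. The genes were chosen on these same levels, so nothing is read from these counts.

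Per length of transcript, RNS1 passed from the third to the first place among the 5 T2 family genes between WT and pot1b. In RPKM (CPM per kilobase of exon), RNS2 had a level of 14.3 in WT mock, AT1G14210 of 13.2 and RNS1 of 5.43. In pot1b mock, RNS1 had a level of 25.7 RPKM, RNS2 of 14.8 and AT1G14210 of 13.6. RNS1 made up 15.8% ± 1.98 of the summed RPKM of the 5 genes in WT mock, 12.6% ± 1.95 in WT Zeocin, 46.3% ± 3.11 in pot1b mock and 39.6% ± 4.27 in pot1b Zeocin (SD, n = 3). The share of RNS2 was 41.6%, 43.2%, 26.8% and 30.1% in the same order, while its own level was flat.

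**Figure D3:**
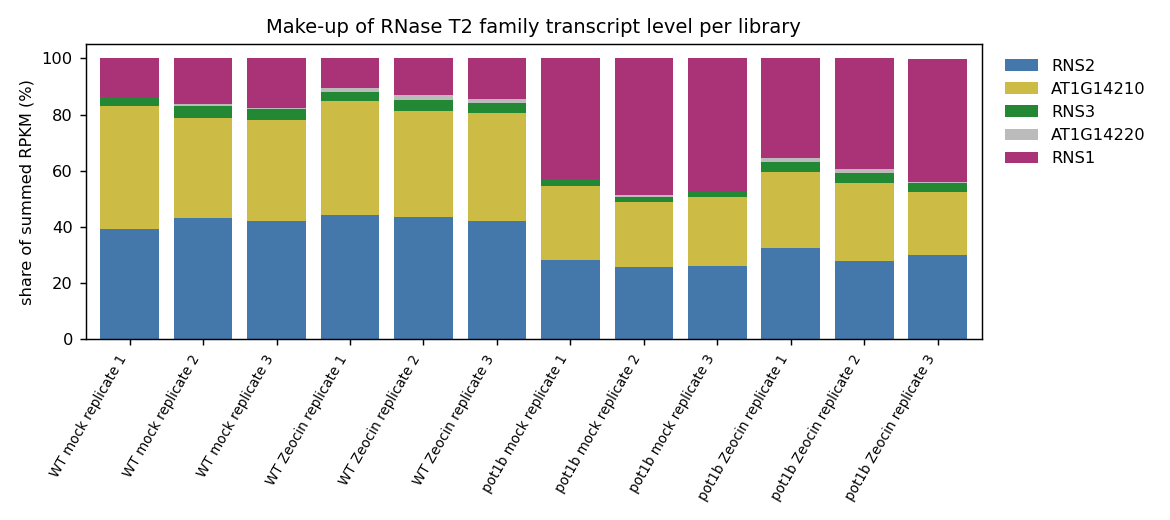
Share of each RNase T2 family gene in the summed RPKM of the 5 genes (vertical axis, percent) in each of the 12 libraries (bars). The RNS1 share is 10.5% to 17.6% in the WT libraries and 35.4% to 48.8% in the pot1b libraries.

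Within a library, the ratio of RNS1 to RNS2 counts does not depend on how libraries are scaled. In WT it was 0.330, 0.357 and 0.397 under mock and 0.226, 0.282 and 0.326 under Zeocin. In pot1b it was 1.44, 1.80 and 1.71 under mock and 1.04, 1.34 and 1.39 under Zeocin. RNS1 thus gave fewer counts than RNS2 in every WT library and more in every pot1b library.

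Between the genotypes, the other nuclease genes differed less than RNS1. Of the 2 remaining T2 family genes, which are known here from their family name alone, AT1G14210 had 10.1 to 14.5 CPM in all libraries and was not called in any comparison (pot1b under mock 0.02, 95% interval -0.23 to 0.26). AT1G14220 did not pass the filter. It summed to 7 counts in WT mock (exact Poisson 95% interval 2.81 to 14.4, counting error only) and 6 in pot1b mock (2.20 to 13.1). In the Zeocin groups it summed to 25 counts in WT (16.2 to 36.9) and 20 in pot1b (12.2 to 30.9), a mean of 0.485 and 0.510 CPM against 0.147 and 0.137 CPM under mock.

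Among the S1/P1-type relatives of BFN1, ENDO2, an endonuclease of single-stranded nucleic acid, had 3.65 to 4.23 CPM in WT mock and 6.00 to 7.10 CPM in pot1b mock. These groups did not overlap, and 17.7% of all tested genes had every pot1b mock library above every WT mock library. ENDO2 was called higher in pot1b under mock (0.68, SE 0.15, edgeR adjusted p = 0.0024) and stood at 0.44 under Zeocin (SE 0.15, adjusted p = 0.067). ENDO2 overlaps 2 other genes on the map, so its reads are uncertain. ENDO4 was called higher with Zeocin in WT, from 0.624 ± 0.206 to 1.38 ± 0.147 CPM (1.04, SE 0.29, adjusted p = 0.031), and stood at -0.02 in pot1b (SE 0.33). Its interaction of -1.06 was not called (adjusted p = 0.37). The ENDO4 call was lost without WT mock replicate 2 or 3 or WT Zeocin replicate 2 or 3 (adjusted p from 0.0553 to 0.136) and with DESeq2 (0.128). ENDO3, ENDO4 and ENDO5 lie side by side and share runs of 31 to 37 identical bases, and ENDO4 overlaps AT4G21580, so their counts are uncertain. ENDO5 (3.54 to 7.03 CPM) was not called, and ENDO3 (1 to 11 counts per library) did not pass the filter.

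Of the calcium-dependent nucleases of the plasma membrane, CAN1 was called higher in pot1b under Zeocin, with 8.90 ± 0.71 CPM in WT and 12.5 ± 1.04 CPM in pot1b (0.48, SE 0.12, edgeR adjusted p = 0.011). The call was lost without pot1b Zeocin replicate 1 (adjusted p = 0.0623). Under mock CAN1 stood at 0.30 (SE 0.12, adjusted p = 0.096). CAN2, at 11.9 to 18.7 CPM, was not called. CAN1 and CAN2 share a run of 47 identical bases, at 80.4% identity over the aligned coding sequence, so their counts are uncertain too. Of the 8 nuclease genes beside the 4, 6 were tested, and their median log2 difference in pot1b was 0.14 under mock and 0.10 under Zeocin, beside 0.005 and 0.011 over all tested genes.

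Genes of phosphate supply and of the starvation response, under which RNS1 is known to rise, were called in both directions in pot1b. The list holds regulators and transporters beside induced genes, so its counts of higher and lower calls do not measure that response. Of 29 listed genes, 19 were tested. In pot1b 6 were called higher and 3 lower under mock (median 0.10), beside 7.25% higher and 5.83% lower over all tested genes. Under Zeocin 2 were called higher and 2 lower (median 0.04), beside 6.55% and 4.51%. PHT1;4, a phosphate uptake transporter, had 3.08 ± 0.391 CPM in WT mock and 6.46 ± 0.512 CPM in pot1b mock (1.03, SE 0.15, edgeR adjusted p = 3.0e-05). PHF1, which lets phosphate transporters leave the endoplasmic reticulum, rose by 0.89 (SE 0.12, adjusted p = 1.0e-05) and PHT1;1, another uptake transporter with near-identical relatives, by 0.87 (SE 0.10, adjusted p = 1.2e-06) in the same comparison. PHO1, which exports phosphate into the xylem, was lower in pot1b, at 28.3 ± 1.92 CPM against 45.4 ± 1.19 CPM under mock (-0.68, SE 0.09, adjusted p = 1.1e-05) and at -0.72 under Zeocin (SE 0.09, adjusted p = 1.5e-05). PHO2, which marks PHO1 for degradation, was lower under Zeocin (-0.41, SE 0.07, adjusted p = 4.9e-04).

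Of the 29 genes, 10 did not pass the filter. SPX3 had 0 counts in all 12 libraries, which allows up to 0.119 to 0.316 CPM per library. IPS1, the RNA that blocks miR399, had 1 to 3 counts per group. The filter also removed MGD3 (3 to 6 counts per group), NPC4 (2 to 5), PEPC1 (6 to 9) and PPSPASE1 (7 to 12). PHT1;2 (0 to 5) and PHT1;3 (0 to 1) were removed too, as were MGD2 (15 to 32) and PHT1;5 (12 to 34). Some listed genes known to rise on phosphate shortage stood well above the floor of 3 counts. AT4, a relative of IPS1, had 2.88 ± 0.349 CPM in WT mock (pot1b under mock 0.26, edgeR adjusted p = 0.44), SPX1, a phosphate sensor, 3.44 ± 0.513 CPM (-0.04, adjusted p = 0.94) and PAP17, an acid phosphatase whose reads overlap another gene, 5.87 ± 1.27 CPM (0.26, adjusted p = 0.29). SQD2, an enzyme of sulfolipid synthesis, was called higher in pot1b under mock (0.38, SE 0.12, adjusted p = 0.040). Under Zeocin, 1 listed gene was called lower in WT, PHO1 (-0.42, SE 0.09, edgeR adjusted p = 0.0039), and 4 in pot1b, with none called higher in either. Over all tested genes, 2.65% were called lower in WT and 3.00% in pot1b. PHO1 was also among the 4 listed genes of pot1b (-0.45, SE 0.09, adjusted p = 0.0029). The other 3 were PAP10, an acid phosphatase whose reads overlap another gene (-0.60, SE 0.17, adjusted p = 0.038), PHF1 (-0.50, SE 0.12, adjusted p = 0.0071) and PHT1;4 (-0.49, SE 0.15, adjusted p = 0.042). The count of 4 fell to 2 without pot1b mock replicate 1 or 2 or pot1b Zeocin replicate 1, and to 1 without pot1b mock replicate 3 or without both pot1b libraries of replicate number 3. It was 2 with DESeq2. The PHT1;4 call was lost under 10 of 20 alternatives, among them no filter (adjusted p = 0.0566) and DESeq2 (0.136). That of PAP10 was lost under 6, among them DESeq2 (0.0719), and that of PHF1 without pot1b mock replicate 3 (0.0686).

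The list named wounding and jasmonate holds genes of jasmonate synthesis and response, and most of those tested were called higher in pot1b. Their part in the RNS1 difference was not tested. Of 10 listed, 9 were tested, 7 were called higher under mock (median 0.81; 7.25% of all tested genes) and 6 under Zeocin (median 0.72; 6.55%), with none lower, and 0 were called for Zeocin in either genotype by edgeR, DESeq2 or limma-voom (unadjusted p under 0.05 in 3 for WT and 1 for pot1b). AOS, the enzyme that makes allene oxide from a fatty acid peroxide on the way to jasmonate, had 53.4 ± 2.92 CPM in WT mock and 93.8 ± 6.70 CPM in pot1b mock (0.81, SE 0.08, edgeR adjusted p = 5.3e-07) and rose by 1.05 under Zeocin (SE 0.09, adjusted p = 2.5e-08). JAZ10, a jasmonate-induced repressor whose reads overlap another gene, rose by 0.72 under Zeocin (SE 0.13, adjusted p = 1.0e-03). TAT3, a tyrosine aminotransferase, was near the floor in WT, with sums of 10 counts under mock and 6 under Zeocin, against 38 and 41 counts in pot1b (2.16, SE 0.54, adjusted p = 0.0088 under mock, and 3.08, SE 0.59, adjusted p = 0.0012 under Zeocin). Those not called under mock were MYC2, a main transcription factor of jasmonate responses whose reads overlap another gene (0.00, adjusted p = 0.99), and OPR3, an enzyme of jasmonate synthesis (0.05, adjusted p = 0.79). The list held 4 called genes under mock without pot1b mock replicate 3, where TAT3 was among those lost (adjusted p = 0.0622). Without both pot1b libraries of replicate number 3 the TAT3, CORI3 and VSP1 calls under mock were lost (adjusted p = 0.0697, 0.0825 and 0.184).

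The same mock comparison called CORI3, a cystine lyase (1.11, SE 0.34, edgeR adjusted p = 0.034), and VSP1, a vegetative storage protein (0.97, SE 0.30, adjusted p = 0.037). Both had group means under 2 CPM. The CORI3 call was lost without any 1 of the 6 mock libraries (adjusted p from 0.0635 to 0.14) and with DESeq2 (0.0565). That of VSP1 was lost without WT mock replicate 2 or 3 or pot1b mock replicate 2 or 3 (adjusted p from 0.0998 to 0.174) and with DESeq2 (0.0648).

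The products of RNA breakdown enter nucleoside salvage or are broken down further. In a list that mixes genes of both routes, here named nucleoside salvage, 1 gene stood out in size. ENT3, a nucleoside transporter, had 17.3 ± 1.29 CPM in WT mock and 38.5 ± 1.55 CPM in pot1b mock (1.15, SE 0.09, edgeR adjusted p = 9.9e-09), and 14.7 ± 1.94 CPM in WT Zeocin and 40.6 ± 2.25 CPM in pot1b Zeocin (1.47, SE 0.09, adjusted p = 5.8e-10). Its WT and pot1b libraries did not overlap. Over all tested genes, 17.7% had every pot1b library above every WT library under mock, and 14.0% under Zeocin. NSH1, a nucleoside hydrolase of the cytosol, rose by 0.36 under mock (SE 0.08, adjusted p = 0.0022) and 0.62 under Zeocin (SE 0.08, adjusted p = 7.6e-06). NSH3, its extracellular relative, rose by 0.47 under Zeocin (SE 0.12, adjusted p = 0.010), a call lost without WT Zeocin replicate 3 (adjusted p = 0.0514). XDH1, a xanthine dehydrogenase whose reads overlap another gene, was lower in pot1b under mock (-0.42, SE 0.07, adjusted p = 4.4e-04), and GSDA, a guanosine deaminase, was lower with Zeocin in WT (-0.47, SE 0.08, adjusted p = 5.4e-04). Of 14 genes, all tested, 2 were called higher and 2 lower in pot1b under mock (median -0.06), beside 7.25% and 5.83% of all tested genes. Under Zeocin 3 were called higher and 1 lower (median 0.10), beside 6.55% and 4.51%.

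Genes of senescence, the other setting in which RNS1 and BFN1 are known to rise, were called in both directions, and most were not called. Of 16 listed, 13 were tested. In pot1b 1 was called higher and 4 lower under mock (median -0.12), beside 7.25% higher and 5.83% lower over all tested genes. Under Zeocin 1 was called higher and 3 lower (median -0.13), beside 6.55% and 4.51%. WRKY6, a transcription factor of senescence and of phosphate signalling, was the gene that rose (0.74, SE 0.08, edgeR adjusted p = 1.1e-06 under mock, and 0.47, SE 0.08, adjusted p = 5.2e-04 under Zeocin). SEN1, a dark-induced senescence marker, fell from 803 ± 36.9 to 526 ± 28.6 CPM under mock (-0.61, SE 0.10, adjusted p = 1.0e-04). WRKY45, another WRKY factor of senescence, stood at -0.64 under mock (SE 0.15, adjusted p = 0.014), a call lost without pot1b mock replicate 2 (0.0560) or 3 (0.0558) or both pot1b libraries of that number (0.0619). SAG12, the protease most used as a marker of leaf senescence, had 0 counts in all libraries.

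The count of 5 senescence genes called under mock fell to 3 without WT mock replicate 1 or 2 and to 2 without pot1b mock replicate 2 or 3. Beside 2.65% of all tested genes in WT and 3.00% in pot1b, Zeocin called 2 senescence genes lower in each genotype and none higher. In WT they were SEN1 (-0.38, SE 0.10, edgeR adjusted p = 0.017) and NYC1, a chlorophyll b reductase (-0.30, SE 0.08, adjusted p = 0.015). The SEN1 call was lost without WT mock replicate 1 or 2 or WT Zeocin replicate 2 or 3 (adjusted p from 0.0681 to 0.0835), and that of NYC1 without WT mock replicate 1 or WT Zeocin replicate 2 or 3 (from 0.0575 to 0.0788). In pot1b they were NYC1 (-0.30, SE 0.08, adjusted p = 0.014) and PAO, a chlorophyll breakdown enzyme whose reads overlap another gene (-0.39, SE 0.09, adjusted p = 0.0047). The WT count was 0 without WT mock replicate 1 or WT Zeocin replicate 2, 1 without WT mock replicate 2 and 4 without WT Zeocin replicate 1. With only the 2 groups compared it was also 0. The pot1b count was 1 without pot1b mock replicate 1 or 3 or pot1b Zeocin replicate 2 or 3, and 0 without both pot1b libraries of replicate number 3.

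Markers of developmental cell death, the setting of BFN1 and RNS3, were sparse. Of 7 listed, 3 were tested, and 1 was called in any comparison. It was higher in pot1b under Zeocin, as were 6.55% of all tested genes. This was SCPL48, a serine carboxypeptidase-like gene, with 7.34 ± 0.198 CPM in WT Zeocin and 9.82 ± 0.922 CPM in pot1b Zeocin (0.41, SE 0.12, edgeR adjusted p = 0.025; its reads overlap another gene). The call was lost without WT Zeocin replicate 2 (0.0569) or pot1b Zeocin replicate 2 (0.121), without both pot1b libraries of replicate number 3 (0.0659) and with DESeq2 (0.0778). Summed markers of differentiating xylem, 8 genes of which 5 were tested, were 26.6 to 30.8 CPM in WT mock and 26.3 to 28.3 CPM in pot1b mock. They were 35.8 to 37.8 CPM in WT Zeocin and 30.4 to 37.6 CPM in pot1b Zeocin. With Zeocin the xylem proteases XCP1 in WT (0.57, SE 0.16) and XCP2 in pot1b (0.40, SE 0.12) were called higher. Over all tested genes, 3.34% were called higher with Zeocin in WT and 3.7% in pot1b. The reads of XCP1 overlap another gene. The XCP1 call was lost without WT mock replicate 1 or 2 or WT Zeocin replicate 2 (adjusted p from 0.0654 to 0.194). The XCP2 call was lost without any 1 of the 6 mock libraries, WT Zeocin replicate 2 or pot1b Zeocin replicate 1 or 2 (adjusted p from 0.0521 to 0.253) and with DESeq2 (0.0848) or limma-voom (0.0603). The 4 root cap markers summed to at most 1.30 CPM and did not pass the filter. The part of xylem in the RNS3 level was not tested.

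None of 9 autophagy genes, whose pathway brings ribosomes to RNS2 in the vacuole, was called in any of the 5 comparisons by edgeR, DESeq2 or limma-voom, and at most 2 per comparison had an unadjusted p under 0.05. Their medians were -0.14 and 0.02 for pot1b under mock and Zeocin, and -0.12 and 0.07 for Zeocin in WT and pot1b. Leaving out WT Zeocin replicate 1 or 3 or pot1b Zeocin replicate 2 gave 1 called gene in a comparison. For the interaction, edgeR called 0 genes in any of the lists described here, and 0 to 5 per list had an unadjusted p under 0.05. DESeq2 and limma-voom also called 0 in these lists, except that calls of the tissue markers (leaf, root, xylem and root cap) were not counted with those tools.

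**Figure D4:**
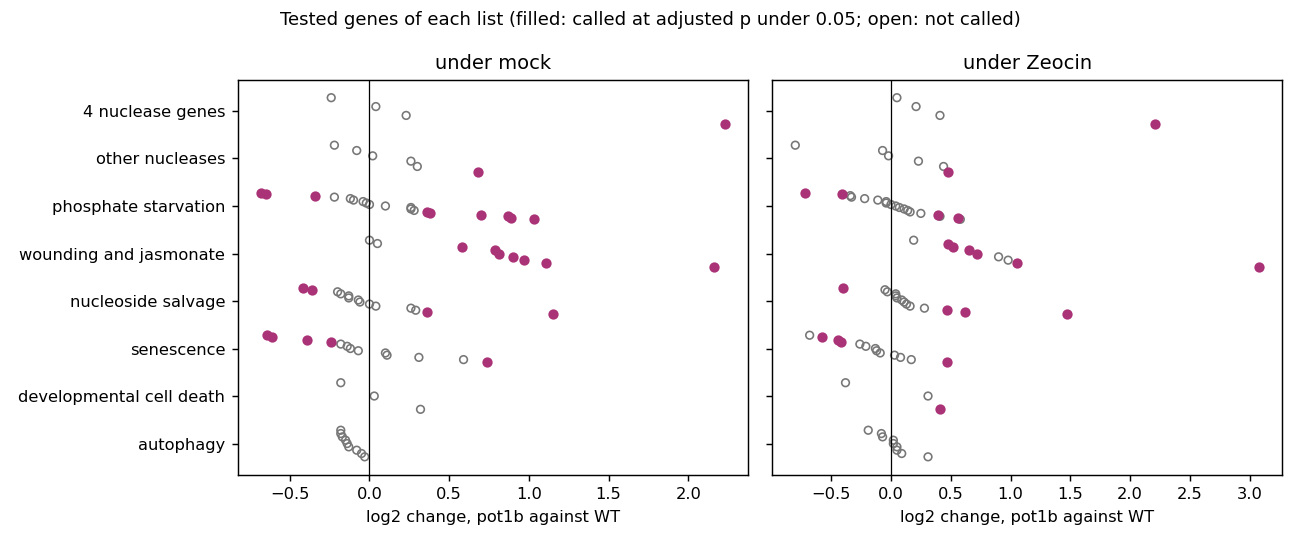
Log2 change in pot1b against WT (horizontal axis) of every tested gene of each list (rows), under mock and under Zeocin, with called genes filled. RNS1, at 2.23 and 2.21, is the filled point of the top row, the 9 wounding and jasmonate genes lie at or above 0, and the phosphate and senescence genes lie on both sides.

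The genes whose profile lay nearest to that of RNS1 were sought among 15369 tested nuclear genes with a mean of at least 2 CPM. The measure was the root mean square difference of log2 CPM, each gene centred on its own mean, over the 12 libraries, with a median of 1.15 over the genes compared. The nearest was AT4G20970, annotated as a bHLH family protein (0.23), with 4.70 ± 0.164 and 3.88 ± 0.371 CPM in WT under mock and Zeocin and 17.9 ± 1.13 and 14.4 ± 1.03 CPM in pot1b. Next came ERD9, a glutathione transferase whose reads overlap another gene (0.24), with 32.6 ± 3.36 and 24.4 ± 3.75 CPM in WT and 117 ± 5.49 and 81.9 ± 7.94 CPM in pot1b. All 5 nearest genes had the same order of group means as RNS1. The noncoding AT2G01422 (0.29), the strictosidine synthase family gene SS3 (0.34) and the hydrolase-type AT5G47330 (0.34) followed, the last with 2.08 ± 0.229 and 1.61 ± 0.415 CPM in WT mock and Zeocin and 12.1 ± 0.748 and 5.61 ± 1.39 CPM in pot1b. These 5 were picked for their likeness, which says nothing of a shared function or control.

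**Figure D5:**
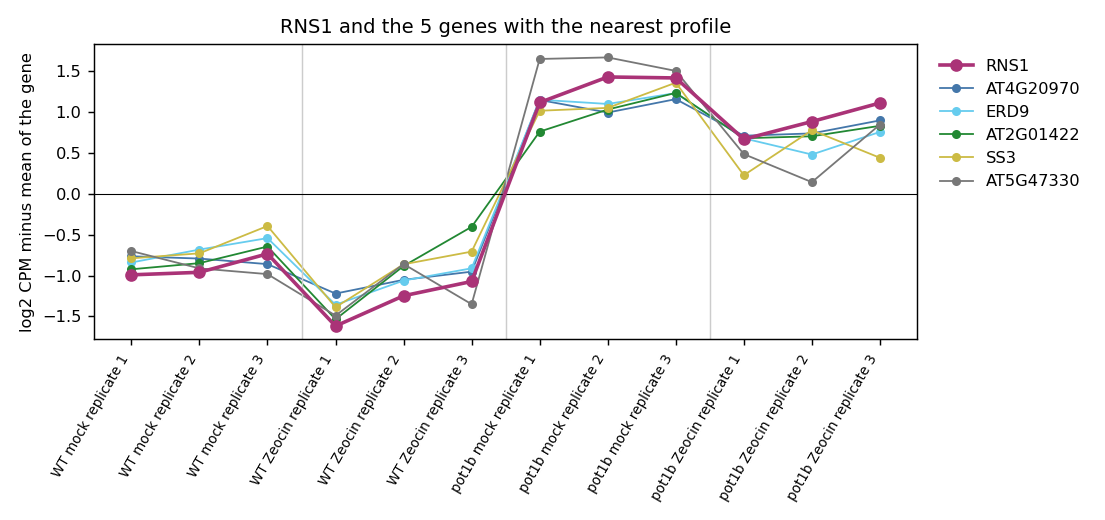
Log2 CPM of RNS1 and of the 5 genes of nearest profile, each minus its own mean (vertical axis), in the 12 libraries (horizontal axis; lines only join the points of a gene). All 6 genes lie under their mean in the 6 WT libraries and above it in the 6 pot1b libraries.

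The nearest neighbours of the 4 genes on the chromosomes were also read, 3 on each side. Of the 6 around RNS1, 3 were tested and 0 were called in any comparison. The same held for RNS2 (3 tested) and RNS3 (4 tested). Of the 6 around BFN1, all tested, 2 were called. Over all tested genes, 13.1% were called for pot1b against WT under mock and 11.1% under Zeocin. The share of all tested genes called in any comparison was not computed, so nothing is read from these counts of neighbours. AT1G11210, of a family of unknown function, rose in pot1b by 1.30 under mock (SE 0.10, edgeR adjusted p = 9.8e-09) and 1.23 under Zeocin (SE 0.10, adjusted p = 4.0e-08), and AT1G11200 rose by 0.48 under Zeocin (SE 0.14, adjusted p = 0.035), while BFN1 between the same groups stood at 0.23 and 0.21.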

How the data were processed

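Total RNA of 12 seedling libraries was depleted of ribosomal RNA and sequenced from a stranded kit, per the labels' protocols. The deposited tables hold whole-number read counts for each gene, not normalized. The authors used Trim Galore, HISAT2, featureCounts and limma with the TAIR10 build, per the submitters' processing notes. No version and no strand setting is given in the sources used here, so the reads of overlapping genes cannot be told apart.

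The main tool was edgeR 4.0.16, run under R 4.3.3. The filter filterByExpr with a minimum count of 10 removed 14666 of 34262 features, so that 19596 were tested. After TMM scaling, all 12 libraries entered 1 model with 4 groups (robust quasi-likelihood F test, 8 residual degrees of freedom, common dispersion 0.0121). A gene was called at a Benjamini-Hochberg adjusted p under 0.05 over all tested genes. Intervals of counts are exact Poisson intervals. RPKM used exon lengths of RefSeq TAIR10.1, which also gave names, neighbours and sequences; the count tables carry no coordinates. The fit was tested on simulated counts.

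The 4 genes and all gene lists were chosen with earlier results of these data known. Named are the 4 genes, 8 other nucleases, up to 3 called genes of each list and comparison with the largest change, and the 5 genes nearest in profile to a member whose group means span over 1 on the log2 scale (prior count of 2). Genes beyond this rule were named after their values were seen. They were POT1B, SPX3, IPS1, the other phosphate genes that did not pass the filter, AT4, SPX1, PAP17, SQD2, MYC2, OPR3, SAG12, the leaf and root markers and neighbours. One listed senescence locus was left out because its name could not be paired. Alternatives were DESeq2 1.42.0, limma-voom (limma 3.58.1), other scalings, no filter, a replicate block, the 2 groups alone and each library left out.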

Additional observations from a re-analysis of the deposited data

How the results depend on the processing

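Over 20 alternatives the RNS1 difference between pot1b and WT ranged from 2.16 to 2.33 under mock and from 2.06 to 2.34 under Zeocin. RNS1 was chosen on these levels, so the range is no support. No called result changed sign. The sign of 15 results that were not called turned in 39 alternatives, none of which called them. With single libraries left out, BFN1 ranged from -0.14 to 0.58 for Zeocin in WT, -0.11 to 0.61 for pot1b under mock and -0.40 to 0.32 for the interaction. The interaction of RNS1 ranged from -0.15 to 0.11 and that of RNS2 from -0.02 to 0.06, and RNS2 for Zeocin in pot1b from -0.06 to 0.02. AT1G14210 ranged from -0.19 to 0.08 for Zeocin in WT, -0.07 to 0.19 and -0.07 to 0.03 for pot1b under mock and Zeocin, and -0.22 to 0.05 for the interaction. ENDO2 for Zeocin in WT ranged from -0.09 to 0.09, ENDO4 for Zeocin in pot1b from -0.15 to 0.15, ENDO5 for pot1b under mock from -0.15 to 0.04 and CAN2 for pot1b under Zeocin from -0.15 to 0.02. Without both pot1b libraries of replicate number 3, CAN2 was 0.01 for Zeocin in pot1b and 0.02 for pot1b under Zeocin, ENDO5 0.04 for pot1b under mock, AT1G14210 0.02 for pot1b under Zeocin and for the interaction, and RNS2 -0.01 for the interaction. Of 49 called results of named genes, 26 held under every alternative. The number of the 4 genes called for Zeocin in pot1b was 0 with DESeq2 and without both pot1b libraries of replicate number 3 (an alternative chosen after seeing the data), and 0 to 1 with single libraries left out. Leaving out 1 library gave 707 to 1498 called genes for Zeocin in WT (1174 with all), 919 to 2033 for Zeocin in pot1b (1313), 1595 to 3736 for pot1b under mock (2562), 1239 to 2304 under Zeocin (2168) and 56 to 437 for the interaction (147). Without both pot1b libraries of replicate number 3 there were 742 genes for Zeocin in pot1b, 1294 for pot1b under Zeocin and 65 for the interaction. With only the 2 groups compared there were 709 for Zeocin in WT, 3981 for pot1b under mock and 928 under Zeocin. The cause of these shifts was not tested, beyond the fewer libraries in each fit.

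Replicate numbers were taken to pair the samples only if all 18 correlations between same-numbered libraries were over 0.1, and 12 were (-0.022 to 0.416), among them all 6 of number 3 (0.29 to 0.416). With the replicate block 379 genes were called for the interaction, and 1 of the 4 genes, RNS1, was called for Zeocin in WT. The block also called CAN1 under mock (edgeR adjusted p = 0.0449) and ENDO2 under Zeocin (0.0413). CAN1 under mock was called as well without WT Zeocin replicate 1 (0.0495), pot1b mock replicate 3 (0.0402) or both pot1b libraries of that number (0.0323) and with the 2 groups alone (0.0336), and ENDO5 for Zeocin in WT without WT Zeocin replicate 1 (0.0376). Scaling on nuclear genes alone set RNS1 levels at 14.2 and 10.7 CPM in WT under mock and Zeocin and 67.0 and 49.8 CPM in pot1b, and left its differences within 0.02. RNS3 and BFN1 rest on at most 35 and 18 counts per library.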
